A study of Mus musculus with 8 samples.

Results

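The Cyp2 genes of the mouse are the largest family of its cytochrome P450 enzymes, and here they were described as every gene whose symbol was Cyp2 followed by a subfamily letter and a number, whatever its counts. This rule found 48 of the 55487 genes in the count table, all annotated as protein coding, in 13 subfamilies. RNA sequencing had been run on what the labels call the stromal vascular fraction of MC38 tumors, a mouse colorectal carcinoma line grown under the skin. The groups were 4 libraries from Bmal1+/+ mice and 4 libraries labelled Bmal1-/-, from mice carrying a germline loss of the core clock gene Bmal1 in all cells. Both groups carried the same implanted tumor line, and per the study's methods GFP-labelled tumor cells were gated out by sorting. The age and sex of the mice, the time of day of collection and whether each library came from 1 animal are not given in the sources used here, so p-values measure the spread between these libraries. Replicate numbers 1 to 4 follow the labels, and where 4 values are given for a group they are in that order.

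Cyp2 enzymes are heme proteins of the endoplasmic reticulum that insert an oxygen atom into steroids, fatty acids, bile acids, retinoids, drugs and other foreign compounds. They receive electrons from the reductase encoded by Por, in some reactions with help from cytochrome b5, and most members reach their highest levels in liver. Their genes lie in tandem arrays that differ between species. In mouse liver several members are known to be expressed mainly in 1 sex under control of the growth hormone pattern, others are induced through the nuclear receptors CAR and PXR, and clock output factors of the PAR bZIP family are known to act on Cyp2a and Por genes.

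Libraries held between 14054825 and 18449143 counts, so that the detection floor of 3 counts corresponded to 0.163 to 0.213 CPM (counts scaled to the library total; counting error only). Bmal1 itself (Arntl), the targeted gene, was at 0.960 to 2.71 CPM in Bmal1+/+ libraries and at 30.1 to 35.0 CPM in those labelled Bmal1-/-, the reverse of what a loss of its transcript would give. Counts summed over the gene do not show whether the deleted part was read, so this is no full check of the labels. Of the other clock genes examined, Npas2, which can pair with BMAL1, was at 0.120 to 0.223 CPM and 31.2 to 42.2 CPM, and Nr1d1, a BMAL1 target, at 38.4 to 52.4 CPM and 1.56 to 4.13 CPM. Every fold change below is therefore that of the libraries labelled Bmal1-/- over the Bmal1+/+ libraries, as labelled. The X-inactivation transcript Xist was at 844 to 1095 CPM in Bmal1+/+ libraries and at 0.142 to 0.749 CPM in the others, and the Y-linked Ddx3y was at 0 and at 58.1 to 61.2 CPM, so the genotype label and the sex of the source cannot be told apart in any comparison below. Of the 8 hepatocyte markers examined all were detected in every library, and their sum was 102859 to 111671 CPM in Bmal1+/+ libraries and 61097 to 73862 CPM in those labelled Bmal1-/-. Single markers went both ways, as Alb fell by 2.10 on the log2 scale, Apoa1 rose by 1.58 and Fgb by 1.14, and the other 5 were not called (median log2 fold change 0.11). Fgb is also among the 7 acute-phase transcripts described below. The 9 fibroblast markers summed to 137 to 220 CPM and 104 to 109 CPM, with Fap at or below 0.390 CPM, the 7 macrophage and leukocyte markers to 246 to 305 CPM and 98.1 to 190 CPM, and the 5 endothelial markers to 132 to 164 CPM and 76.2 to 110.3 CPM. The part of these differences in the values below was not tested. In bulk RNA, fewer cells of a type and less RNA per cell cannot be told apart.

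Of the 48 genes, 8 had no count in any library, 5 had counts but did not pass edgeR's expression filter, and 35 were tested among 14353 genes. With edgeR's quasi-likelihood test, and p adjusted over all of them by Benjamini-Hochberg, 15 of the 35 were lower in the libraries labelled Bmal1-/- at an adjusted p below 0.05, against 16.2% of all tested genes, and 12 were higher, against 14.9%. The other 8 were not called. By the criterion of the study, an absolute log2 fold change above 1 with an unadjusted p below 0.05, 12 members were lower and 7 higher, against 8.71% and 5.41% of all genes. The 4 libraries of one label did not overlap with the 4 of the other for 23 of the 35 members, against 33.4% of all tested genes. Only members that passed the filter enter these counts. The median log2 fold change over the 35 was -0.14 (0.02 over all tested genes) while the median of its absolute size was 1.16 (0.35 over all tested genes). All 48 genes together gave 19883, 20829, 21555.0 and 21829.8 CPM in the Bmal1+/+ libraries and 21097, 21248, 25327 and 15857 CPM in those labelled Bmal1-/-, means of 21024 ± 870.3 and 20882 ± 3881 (SD, n = 4 each), with overlapping groups.

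**Figure D1:**
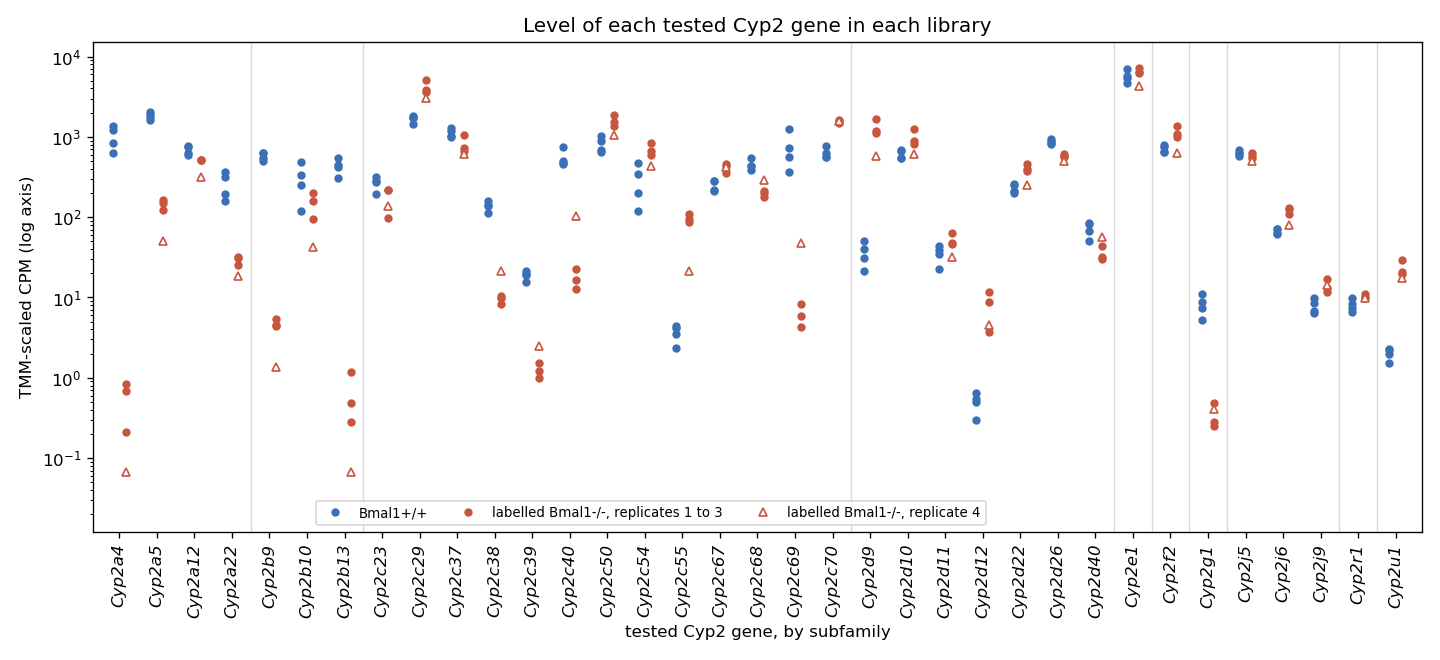
TMM-scaled CPM (log axis) of the 35 tested Cyp2 genes in each of the 8 libraries, grouped by subfamily, with Bmal1+/+ libraries in blue and those labelled Bmal1-/- in red, replicate 4 of the latter as open triangles. Cyp2a4, Cyp2b9, Cyp2b13 and Cyp2g1 are far lower in every red library, Cyp2c55, Cyp2d9 and Cyp2u1 far higher, and the points of Cyp2e1 overlap.

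The Cyp2a subfamily had 4 members, all on chromosome 7, and all 4 were lower. Cyp2a4, a steroid hydroxylase known in mouse liver as female-predominant, and Cyp2a5, the mouse coumarin hydroxylase, were among the 4 highest members per transcript length in Bmal1+/+ libraries. Cyp2a4 (ENSMUSG00000074254) was at 848, 1229.6, 629 and 1349 CPM there and at 0.687, 0.831, 0.213 and 0.0678 CPM in the libraries labelled Bmal1-/-, the last of which rests on 1 count and 1 more on 3 counts. Every library labelled Bmal1-/- was thus below 1 CPM, near the floor, and the fitted log2 fold change of -11.10 ± 0.56 (± SE; adjusted p = 1.81e-06) depends on the prior count at such values. Cyp2a5 (ENSMUSG00000005547) went from 1751, 1911, 2058 and 1631 CPM to 121, 150.3, 162 and 50.9 CPM, with no overlap and a log2 fold change of -3.92 ± 0.34 (adjusted p = 3.90e-05). Cyp2a22 was also separated by label, with 368, 157, 196 and 317 CPM against 31.1, 31.6, 25.1 and 18.3 CPM and a log2 fold change of -3.29 ± 0.30 (adjusted p = 5.71e-05). Cyp2a12, which is known to hydroxylate bile acids, moved least, from 767, 601, 628 and 738 CPM to 516, 508, 516 and 313 CPM. Its groups did not overlap, and its log2 fold change of -0.56 ± 0.18 had an adjusted p of 0.0398. This call was lost without any one of the 4 Bmal1+/+ replicates or of replicates 1 and 2 labelled Bmal1-/-, at adjusted p of 0.0501 to 0.0995.

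Reads of Cyp2a4 and Cyp2a5 can be exchanged in counting, because 11.2% of the 100-base windows of Cyp2a4 transcripts occur also in Cyp2a5. Their sum, which does not depend on how such reads were split between the pair, was 2852 ± 252 CPM in Bmal1+/+ libraries against 121.6 ± 50.1 CPM under the other label (SD, n = 4 each). Cyp2a4 and Cyp2a5 also share windows with Cyp2a21-ps, and reads given to it are not in this sum. Their promoters were alike as well, with 245 identical of 251 aligned positions over the 250 bases before the start, or 97.6%. The stretches below are shown because this near-identical pair fell in every library labelled Bmal1-/-. They run from base -250 to base -41 before the RefSeq start on build GRCm38.p6, 5′ to 3′ on the plus strand, with capitals marking a match to the C/EBP letters TTGCNNAA.
Cyp2a4 (chr7:26306942-26307151): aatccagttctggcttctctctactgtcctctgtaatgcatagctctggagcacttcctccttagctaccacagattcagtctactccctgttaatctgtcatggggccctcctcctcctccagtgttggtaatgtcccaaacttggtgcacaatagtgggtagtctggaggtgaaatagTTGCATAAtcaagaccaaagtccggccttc
Cyp2a5 (chr7:26835089-26835298): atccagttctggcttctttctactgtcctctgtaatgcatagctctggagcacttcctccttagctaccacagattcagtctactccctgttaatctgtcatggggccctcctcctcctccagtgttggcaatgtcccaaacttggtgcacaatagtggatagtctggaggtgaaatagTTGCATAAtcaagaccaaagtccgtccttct
In Cyp2a4 the match spans bases -70 to -63, and in Cyp2a5 bases -71 to -64. A letter match is a description of the sequence and no measure of binding.

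Of 5 Cyp2b genes on chromosome 7, 3 had counts. Cyp2b9 and Cyp2b13, known as female-predominant in mouse liver, both fell to a few CPM or less. Cyp2b9 (ENSMUSG00000040660) stood at 622, 502, 540.5 and 621 CPM in Bmal1+/+ libraries and at 5.43, 4.57, 4.41 and 1.36 CPM in those labelled Bmal1-/-, a log2 fold change of -7.17 ± 0.39 (adjusted p = 2.39e-06). Cyp2b13 (ENSMUSG00000040583) stood at 424, 450.03, 541 and 305 CPM and at 1.19, 0.485, 0.285 and 0.0678 CPM, and its log2 fold change was -9.67 ± 0.51 (adjusted p = 2.26e-06). The lowest of these rests on 1 count, and without replicate 1 labelled Bmal1-/- the fitted value for Cyp2b13 was -10.55. Neither gene overlapped between the labels, and their sum was 1001.4 ± 73.9 CPM against 4.45 ± 2.18 CPM (SD, n = 4 each). Cyp2b10 is the phenobarbital-inducible target of CAR. It varied widely within each label, with 333, 486, 120.2 and 251 CPM and 158, 96.1, 197 and 43.0 CPM, and the groups overlapped. Its log2 fold change of -1.27 ± 0.49 was not called (adjusted p = 0.0767), although it was without Bmal1+/+ replicate 3 (-1.53, adjusted p = 0.0362).

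The promoters of Cyp2b9 and Cyp2b13 are shown for the same reason, as a pair that fell together and shares 248 of 250 aligned positions, or 99.2%, over the 250 bases before the start. Strand, build, window and capitals are as above, and both genes lie on the plus strand.
Cyp2b9 (chr7:26173159-26173368): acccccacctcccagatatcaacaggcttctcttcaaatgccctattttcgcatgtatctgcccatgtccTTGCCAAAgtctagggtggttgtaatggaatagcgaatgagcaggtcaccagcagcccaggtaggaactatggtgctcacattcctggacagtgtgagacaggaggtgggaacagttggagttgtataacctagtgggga
Cyp2b13 (chr7:26061245-26061454): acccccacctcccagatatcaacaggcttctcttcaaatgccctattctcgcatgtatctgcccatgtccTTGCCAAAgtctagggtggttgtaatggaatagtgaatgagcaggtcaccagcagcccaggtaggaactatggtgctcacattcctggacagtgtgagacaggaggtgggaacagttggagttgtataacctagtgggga
The match lies at bases -180 to -173 in both. The promoter of Cyp2b10 shared 182 of 260 aligned positions, or 70.0%, with each of them. Transcripts of Cyp2b9 and Cyp2b13 are less alike than those of the Cyp2a pair, with 1.18% of their 100-base windows in common, but 8.502% of Cyp2b13 windows occur also in the annotated gene Gm45225.

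Cyp2g1, known from the olfactory mucosa and the only member of its subfamily here, lies within the same array on chromosome 7. It was low throughout, at 5.30, 8.77, 7.32 and 11.1 CPM in Bmal1+/+ libraries and at 0.250, 0.485, 0.285 and 0.407 CPM in those labelled Bmal1-/-. The latter values rest on 4, 7, 4 and 6 counts, near the floor of 3 counts. The groups did not overlap, and the log2 fold change was -4.49 ± 0.32 (adjusted p = 1.45e-05).

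The Cyp2c subfamily, of 15 genes on chromosome 19, was split. Among its 13 tested members 6 fell, 6 rose and 1 was not called. The largest fall was that of Cyp2c69 (ENSMUSG00000092008), a member known as female-biased in mouse liver, which was at 722, 565, 368 and 1258 CPM in Bmal1+/+ libraries and at 4.25, 8.24, 5.84 and 47.6 CPM in those labelled Bmal1-/-. Its neighbor Cyp2c40 (ENSMUSG00000025004), which hydroxylates arachidonic acid, was at 459.9, 494, 476 and 745 CPM and at 16.5, 22.4, 12.9 and 105 CPM. In both genes replicate 4 labelled Bmal1-/- was several times above the other replicates of its label, but still below every Bmal1+/+ library. The log2 fold change was -5.47 ± 0.85 for Cyp2c69 (adjusted p = 0.00130) and -3.80 ± 0.66 for Cyp2c40 (adjusted p = 0.00229), and without that replicate these became -6.90 and -4.97.

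Cyp2c38 and Cyp2c39, a pair of neighboring genes whose products act on arachidonic acid and of which Cyp2c39 is also known to hydroxylate retinoic acid, both fell. Cyp2c38 was at 157, 112, 137 and 143 CPM and 9.93, 10.5, 8.33 and 21.4 CPM, a log2 fold change of -3.45 ± 0.29 (adjusted p = 3.26e-05). Cyp2c39 was at 19.6, 21.4, 15.5 and 18.9 CPM and 0.999, 1.52, 1.21 and 2.51 CPM, a log2 fold change of -3.59 ± 0.26 (adjusted p = 1.42e-05). In neither case did the groups overlap, and replicate 4 was the highest of its label in both. Cyp2c68 fell less, from 389.9, 435, 436 and 543 CPM to 199, 211, 177 and 293 CPM (log2 fold change -1.04 ± 0.18, adjusted p = 0.00210), again without overlap. Cyp2c37, a liver arachidonic acid hydroxylase and CAR target, was at 1303, 999, 1035 and 1170.5 CPM and 671, 724, 1057 and 604 CPM. One library labelled Bmal1-/-, replicate 3, lay within the Bmal1+/+ range, and the log2 fold change of -0.56 ± 0.19 was just called (adjusted p = 0.0484). The call of Cyp2c37 was lost on leaving out any single library but replicate 3 labelled Bmal1-/-, at adjusted p of 0.0632 to 0.122.

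Among the members that rose, Cyp2c55 (ENSMUSG00000025002), a target of CAR and PXR, changed most within the subfamily, from 4.21, 2.37, 3.49 and 4.45 CPM to 109, 88.0, 93.7 and 21.5 CPM. Replicate 4 was well below the other libraries of its label and still above every Bmal1+/+ library, and the log2 fold change was 4.42 ± 0.48 (adjusted p = 1.52e-04). Cyp2c29, an arachidonic acid epoxygenase and CAR target, was at 1752, 1706, 1427 and 1815 CPM and 3608, 3799, 5091 and 3069 CPM (log2 fold change 1.22 ± 0.18, adjusted p = 0.00107). Cyp2c70, the enzyme that makes muricholic acids in mouse liver, went from 775, 554, 556 and 634 CPM to 1483, 1595, 1614 and 1592 CPM, with little spread within the second label and a log2 fold change of 1.32 ± 0.14 (adjusted p = 1.71e-04). In all 3 genes the labels were fully separated.

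The other Cyp2c genes that rose changed less. Cyp2c50, an epoxygenase, was at 654, 895, 1016 and 690.2 CPM and 1383, 1528, 1873 and 1066 CPM (log2 fold change 0.85 ± 0.21, adjusted p = 0.0129). Cyp2c67 was at 219, 282, 211 and 286 CPM and 454, 437, 352 and 422 CPM (log2 fold change 0.74 ± 0.15, adjusted p = 0.00436). Neither overlapped between labels. Cyp2c54, also an epoxygenase, did overlap, at 120.1, 343, 466 and 200.2 CPM and 587, 657, 844 and 432 CPM, because Bmal1+/+ replicate 3 was above replicate 4 labelled Bmal1-/-. Its log2 fold change of 1.16 ± 0.38 had an adjusted p of 0.0427, and the call was lost without Bmal1+/+ replicate 1, 2 or 4 or without replicate 1, 2 or 3 labelled Bmal1-/-, at adjusted p of 0.0638 to 0.114. Cyp2c23, an epoxygenase that lies apart from the array on the same chromosome, was not called. It was at 193, 286, 319.9 and 273 CPM and 215, 216, 96.9 and 137 CPM, overlapping, with a log2 fold change of -0.69 ± 0.26 (adjusted p = 0.0714). DESeq2 (adjusted p = 0.0291) and edgeR's likelihood ratio test (adjusted p = 0.0459) did call it.

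Counting is least certain for the group of Cyp2c40, Cyp2c67, Cyp2c68 and Cyp2c69. Of their 100-base transcript windows 34.4%, 23.7%, 19.8% and 35.4% occur also in another Cyp2 gene, so that a read of one can be given to another. Their sum fell, from 1972 ± 589 CPM to 692 ± 131 CPM (SD, n = 4 each) with no overlap, while Cyp2c67 alone rose. The related Cyp2c37, Cyp2c50 and Cyp2c54 shared 4.70%, 5.35% and 7.59% of windows, and their sum of 2223 ± 212 CPM against 2857 ± 698 CPM (SD, n = 4 each) overlapped between labels.

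In the Cyp2d subfamily on chromosome 15, which metabolizes steroids and many drugs, 7 of 8 members were tested, and 3 rose, 2 fell and 2 were not called. Cyp2d9 (ENSMUSG00000068086), a steroid hydroxylase known as male-specific in mouse liver, showed the largest rise of any member. It was at 31.2, 40.3, 51.1 and 21.1 CPM in Bmal1+/+ libraries and at 1176, 1107, 1679 and 580.0 CPM in those labelled Bmal1-/-, without overlap, and the log2 fold change was 4.98 ± 0.39 (adjusted p = 2.42e-05). Its neighbor Cyp2d12 rose as well, from 0.301, 0.640, 0.537 and 0.501 CPM to 8.81, 11.6, 3.70 and 4.54 CPM. The log2 fold change of Cyp2d12 was 3.84 ± 0.44 (adjusted p = 2.07e-04), and its Bmal1+/+ values rest on 5, 10, 8 and 9 counts. Cyp2d22 rose from 198, 258, 249 and 211 CPM to 401, 377, 465 and 252 CPM, where replicate 4 fell within the Bmal1+/+ range (log2 fold change 0.71 ± 0.19, adjusted p = 0.0171). Its call was lost without Bmal1+/+ replicate 1 or replicate 4, at adjusted p of 0.0514 and 0.0519.

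Both Cyp2d genes at the far end of this array fell. Cyp2d26 went from 946, 810.0, 898 and 849.6 CPM to 575, 564, 607 and 498 CPM with no overlap, a log2 fold change of -0.64 ± 0.12 (adjusted p = 0.00335). Cyp2d40 went from 81.1, 67.5, 50.2 and 84.9 CPM to 30.4, 31.9, 44.1 and 56.8 CPM, with an overlap and a log2 fold change of -0.80 ± 0.23 (adjusted p = 0.0238). That call was lost without Bmal1+/+ replicate 1 or 4 or without replicate 1 or 2 labelled Bmal1-/-, at adjusted p of 0.0597 to 0.0673. Cyp2d10, at 547, 685, 673 and 547 CPM and 889.6, 816, 1249 and 606 CPM, and Cyp2d11, at 34.9, 44.0, 38.7 and 22.4 CPM and 47.5, 45.8, 63.0 and 31.9 CPM, both overlapped and were not called. Their log2 fold changes were 0.54 ± 0.21 (adjusted p = 0.0786) and 0.43 ± 0.24 (adjusted p = 0.199), and Cyp2d10 alone was called without replicate 4 labelled Bmal1-/- (0.69, adjusted p = 0.0126). Cyp2d10 and Cyp2d11 share 11.7% and 12.2% of their windows with other members, and Cyp2d9 4.67%. Cyp2d12 shares 1.73%, all of it with Cyp2d9, and its exons overlap those of Gm27924 on the same strand. Under the label Bmal1-/- the means were 1135 CPM for Cyp2d9 and 7.15 CPM for Cyp2d12. The part of Cyp2d9 reads in the rise of Cyp2d12 was not tested. With genes of any kind Cyp2d9 shares 7.91%, most of it with Gm46501 (2.64%), whose exons overlap its own on the same strand. The sum of Cyp2d9, Cyp2d10, Cyp2d11 and Cyp2d12 was 684 ± 95.3 CPM against 2079.96 ± 727 CPM (SD, n = 4 each), without overlap.

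Cyp2e1, which oxidizes ethanol, acetone and acetaminophen, had the highest FPKM of the family, a value per transcript length, in each of the 8 libraries. In CPM it was at 4741, 5409, 6963 and 5749 CPM in Bmal1+/+ libraries and at 6292, 6429, 7289 and 4324 CPM in those labelled Bmal1-/-. The groups overlapped, the log2 fold change was 0.09 ± 0.20 (adjusted p = 0.763), and without replicate 3 labelled Bmal1-/- it turned to -0.022. Cyp2f2, which activates naphthalene in liver and in lung club cells, was at 647, 756, 791 and 641 CPM and 1349, 983, 1076 and 636 CPM. Replicate 4 labelled Bmal1-/- was the lowest of all 8 libraries while the other 3 of that label were the highest, and the log2 fold change of 0.51 ± 0.21 was not called (adjusted p = 0.0936). Without that replicate it was 0.68 (adjusted p = 0.0059). The lung epithelial markers Scgb1a1, Scgb3a2 and Sftpc were at 0 in all libraries.

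Of the 8 Cyp2j genes on chromosome 4, whose products form epoxides from arachidonic acid, 4 had counts and 3 were tested. Cyp2j5, the main liver and kidney form, was at 683, 635, 570.4 and 604 CPM and 582, 621, 549.6 and 506 CPM, an overlap, with a log2 fold change of -0.14 ± 0.12 (adjusted p = 0.402). Cyp2j6 rose from 70.2, 64.2, 61.3 and 71.5 CPM to 126, 129, 109.6 and 80.9 CPM (log2 fold change 0.74 ± 0.15, adjusted p = 0.00479) and Cyp2j9 from 6.44, 6.85, 8.53 and 9.91 CPM to 13.1, 11.6, 17.1 and 14.2 CPM (log2 fold change 0.82 ± 0.18, adjusted p = 0.00685). Neither of the latter overlapped, and the subfamily sum was 698 ± 49.6 CPM against 690.5 ± 69.2 CPM (SD, n = 4 each).

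Another pair of members stands alone in its subfamily and outside any array. Cyp2u1 (ENSMUSG00000027983), a hydroxylase of long-chain fatty acids on chromosome 3, rose from 2.23, 1.98, 1.55 and 2.28 CPM to 21.0, 19.5, 29.4 and 17.6 CPM with no overlap (log2 fold change 3.43 ± 0.21, adjusted p = 5.33e-06). Its exons overlap those of 4930534D22Rik on the opposite strand, and whether the counting used strand is not stated. Cyp2r1, which hydroxylates vitamin D to its circulating form, was at 6.501, 7.43, 8.40 and 9.91 CPM and 10.1, 9.76, 10.9 and 9.84 CPM. Its groups overlapped and its log2 fold change of 0.33 ± 0.15 was not called (adjusted p = 0.120), though it was without Bmal1+/+ replicate 4 (0.44, adjusted p = 0.0491).

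The members not tested had few or no counts. Cyp2b19, Cyp2b23, Cyp2d34, Cyp2j7, Cyp2j11, Cyp2j12, Cyp2j13 and Cyp2w1 had 0 counts in all 8 libraries, which allows up to 0.163 to 0.213 CPM in a library. Cyp2s1, an epithelial form, had 7, 33, 9 and 9 counts in Bmal1+/+ libraries and 6, 4, 5 and 0 counts in those labelled Bmal1-/-. In CPM these groups did not overlap, with 0.421 to 2.11 CPM against 0 to 0.375 CPM. Cyp2c65 and Cyp2c66, known from the intestine, each had counts in only 2 libraries, at most 0.448 CPM and 0.285 CPM. Cyp2j8 was at most 0.498 CPM and Cyp2t4 at most 0.445 CPM. No test was run on these genes.

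Among called members, both directions occurred in the arrays of chromosomes 19 and 15, and 1 direction in the others. Of all tested genes, 16.2% were lower and 14.9% higher. The chromosome 7 array spans bases 25802475 to 27158668 of GRCm38 with 13 members, of which 9 were tested. Its 7 called members, Cyp2b13, Cyp2b9, Cyp2a4, Cyp2g1, Cyp2a5, Cyp2a22 and Cyp2a12 in this order, were all lower, and Cyp2b10 and Cyp2f2 near its ends were not called. On chromosome 19, from 39007019 to 40187333, the 12 tested of 14 members were all called, 6 in each direction, and runs of risen and fallen genes alternated. Cyp2c55 and Cyp2c29 rose, Cyp2c38 and Cyp2c39 fell, Cyp2c67 rose, Cyp2c68, Cyp2c40, Cyp2c69 and Cyp2c37 fell, and Cyp2c54, Cyp2c50 and Cyp2c70 rose. The chromosome 15 array, from 82370527 to 82794294, began with the risen Cyp2d22 and ended with the fallen Cyp2d40 and Cyp2d26. The chromosome 4 array lay from 96027534 to 96664154, and its first 5 members were at or near 0. The calls of Cyp2a12, Cyp2c37, Cyp2c54, Cyp2d22 and Cyp2d40 were lost without single libraries, as given above. Neighbors in an array share sequence and are not independent of each other.

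**Figure D2:**
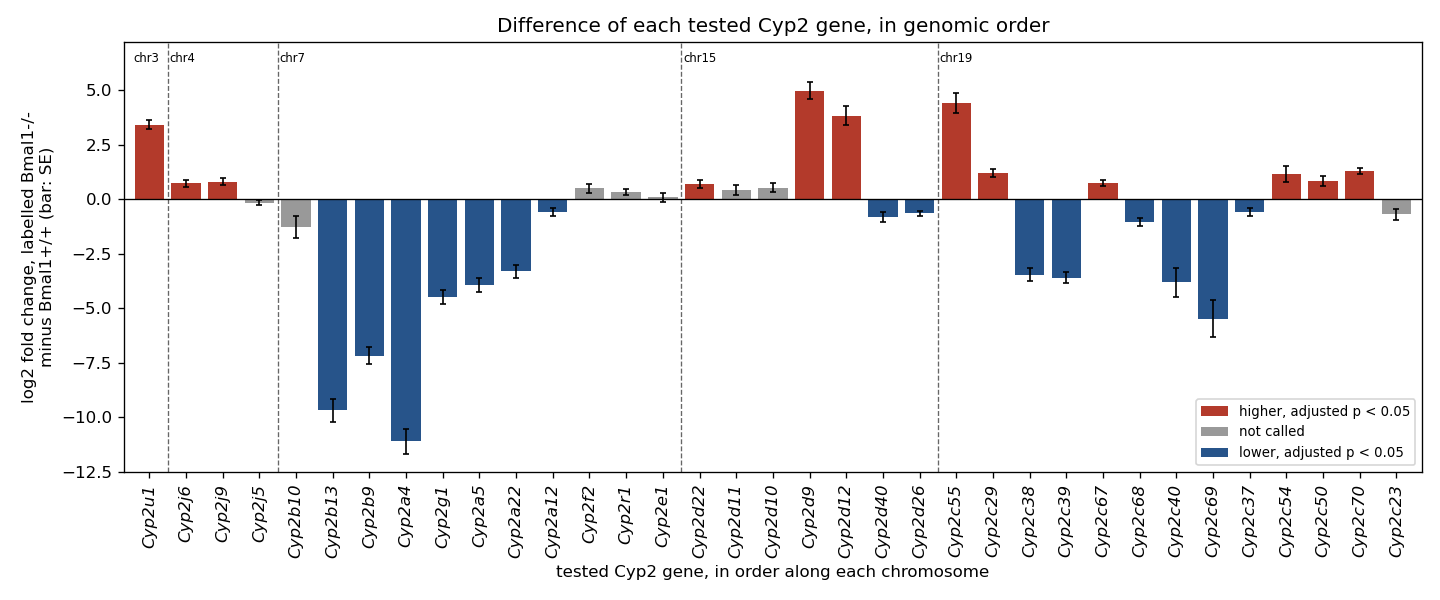
Bars show the log2 fold change (libraries labelled Bmal1-/- over Bmal1+/+), with its SE, of the tested Cyp2 genes in genome order, colored by call. The 7 called genes of the chromosome 7 array all lie below 0, from -11.10 for Cyp2a4 to -0.56 for Cyp2a12, while the chromosome 19 array alternates between -5.47 and 4.42.

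Subfamily sums moved apart where the family sum overlapped. The Cyp2a sum was 3795 ± 225 CPM in Bmal1+/+ libraries and 611 ± 153 CPM in those labelled Bmal1-/-, and the Cyp2b sum 1299 ± 129 CPM and 128 ± 69.7 CPM (SD, n = 4 each). The Cyp2c sum was 6928 ± 583 CPM and 9269 ± 1443 CPM, and the Cyp2d sum 1860.1 ± 96.4 CPM and 3056 ± 853 CPM. In each of these 4 subfamilies the libraries of the labels did not overlap, though only narrowly for Cyp2c and Cyp2d. The highest Bmal1+/+ sum of Cyp2c was 7781 CPM and the lowest labelled Bmal1-/- was 7811 CPM. For Cyp2d these were 1960 CPM and 2030 CPM. Of the Cyp2d members, Cyp2d9 alone went from a mean of 35.9 CPM to 1135 CPM. Cyp2e1, with 5716 ± 931 CPM and 6084 ± 1253 CPM, and Cyp2f2, with 709 ± 76.4 CPM and 1011 ± 294 CPM, overlapped. Sums of this kind were given no test.

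**Figure D3:**
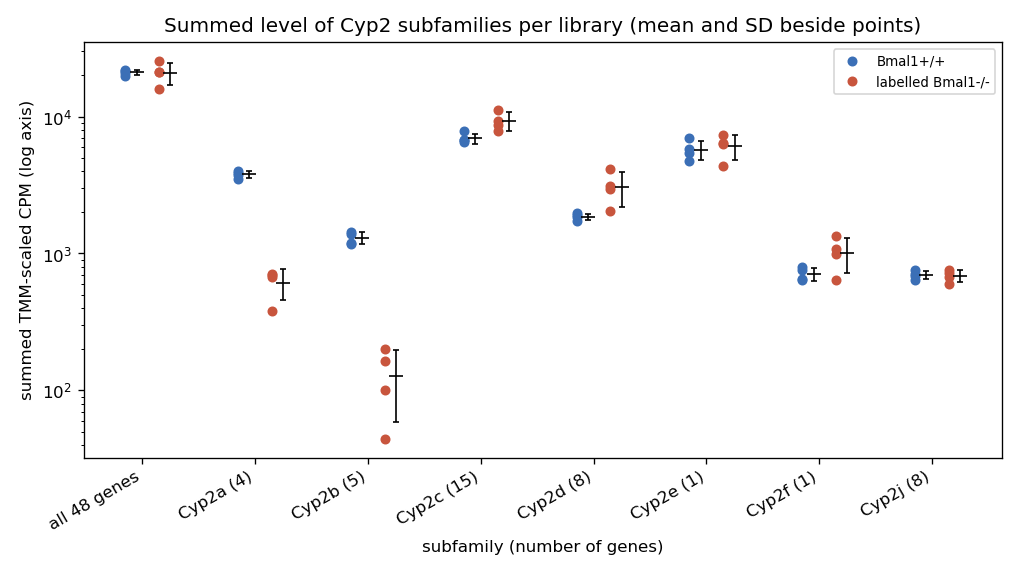
Summed TMM-scaled CPM in each library, on a log axis, of all 48 Cyp2 genes and of the Cyp2a, Cyp2b, Cyp2c, Cyp2d, Cyp2e, Cyp2f and Cyp2j subfamilies. There is 1 point per library, and beside the points are their mean and SD (n = 4). The Cyp2a and Cyp2b sums are lower in all libraries labelled Bmal1-/-, the Cyp2c and Cyp2d sums higher, and the family, Cyp2e, Cyp2f and Cyp2j sums overlap.

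To set the levels of single genes against each other, the FPKM values of the authors (per length) were used. Cyp2e1 ranked first of the family in both groups, at 1657 ± 283 FPKM in Bmal1+/+ libraries and 1800.0 ± 388 FPKM in those labelled Bmal1-/-, or 21.6% and 25.9% of the family's summed FPKM. Behind it, the order changed. In Bmal1+/+ libraries Cyp2c37 (612 ± 81.6 FPKM), Cyp2a5 (577 ± 64.0 FPKM) and Cyp2a4 (574 ± 179 FPKM) followed at levels that lay within each other's spread. In those labelled Bmal1-/- the next were Cyp2c29 (935 ± 207 FPKM), Cyp2c70 (644 ± 21.8 FPKM) and Cyp2f2 (454 ± 139 FPKM), while Cyp2a5 ranked 19 and Cyp2a4 34 of the family. Cyp2d9 moved from rank 29, at 7.29 ± 2.66 FPKM, to rank 11, at 235 ± 93.1 FPKM (SD, n = 4 throughout).

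**Figure D4:**
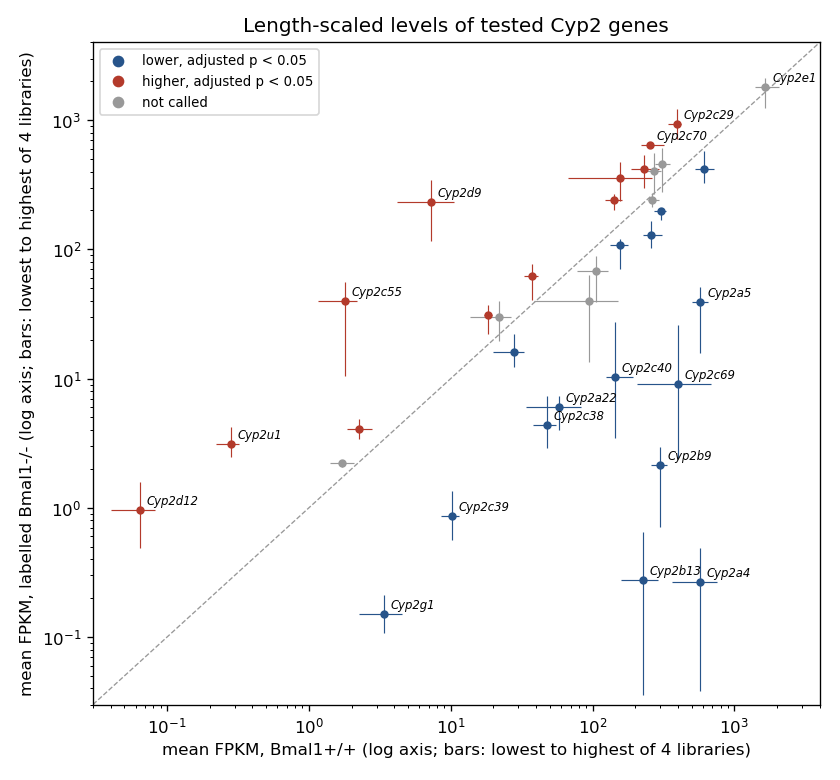
Mean FPKM of each tested Cyp2 gene in Bmal1+/+ libraries (horizontal log axis) and in libraries labelled Bmal1-/- (vertical log axis), with bars from the lowest to the highest of 4 libraries and the line of equal level dashed. Cyp2a4 and Cyp2b13 lie near 0.3 FPKM on the vertical axis from above 200 on the horizontal, and Cyp2d9 moves the other way, from 7.29 to 235 FPKM.

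Members were also grouped by what they are known for in mouse liver, in lists chosen with these results known, so their counts are descriptions and no test. Beside them, 16.2% of all tested genes were lower and 14.9% higher. Of 7 members known as female-biased (Cyp2a4, Cyp2b9, Cyp2b10, Cyp2b13, Cyp2c40, Cyp2c69 and Cyp2g1), 6 were lower and Cyp2b10 was not called, and their sum was 3593 ± 770.3 CPM in Bmal1+/+ libraries and 185 ± 37.2 CPM in those labelled Bmal1-/- (SD, n = 4 each). The 2 known as male-biased, Cyp2d9 and Cyp2u1, were both higher. The Xist and Y-linked values given above separate the libraries in the same way as the labels do. Of 4 targets of CAR or PXR, Cyp2c29 and Cyp2c55 were higher, Cyp2c37 was lower and Cyp2b10 was not called. Of 8 listed arachidonic acid epoxygenases, Cyp2c29, Cyp2c50, Cyp2c54, Cyp2j6 and Cyp2j9 were higher, Cyp2c38 and Cyp2c39 were lower and Cyp2j5 was not called. The list also held the symbol Cyp2c44, which was not found in the annotation used here. Cyp2c23, also an epoxygenase and not called, was not in that list by this symbol and is not among the 8.

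The partners and regulators of these enzymes were examined as a list of 32 genes, all of which were tested. Of these 10 were lower, 3 higher and 19 not called, or 31.25% lower and 9.38% higher against 16.2% and 14.9% of all tested genes. The median log2 fold change was -0.28. Por, the reductase on which every Cyp2 enzyme depends, was at 937, 1332, 1177 and 803 CPM in Bmal1+/+ libraries and at 101, 156, 192 and 182 CPM in those labelled Bmal1-/-. Alas1, the rate-limiting enzyme of heme synthesis, was at 1208, 1393, 1265 and 1189 CPM and at 144, 315, 191 and 220.4 CPM. Both fell without overlap, with log2 fold changes of -2.75 ± 0.24 (adjusted p = 4.49e-05) for Por and -2.54 ± 0.23 (adjusted p = 5.17e-05) for Alas1. Cyb5b, a cytochrome b5, fell by 0.68 on the log2 scale (adjusted p = 0.00633), whereas Cyb5a, Cyb5r3 and Hmox1 were not called.

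Among 15 nuclear receptors and liver factors 4 fell, or 26.7%, and the other 11 were not called. Of all tested genes 16.2% were lower and 14.9% higher. The labels did not overlap for 5 of the 15, or 33.3%, near the 33.4% of all tested genes. Those that fell were Ppara (-0.91), Cebpb (-0.66), Nfe2l2 (-0.43) and Nr1i2, which encodes PXR (-0.42), in log2 fold change. Nr1i3, which encodes CAR, was at 329, 318, 388 and 314 CPM and at 186, 191, 318 and 118 CPM, and its log2 fold change of -0.73 ± 0.25 was not called (adjusted p = 0.0535). Hnf4a and Cebpa, which maintain hepatocyte expression, were not called. The clock output factor Dbp was at 67.0 to 113 CPM in Bmal1+/+ libraries and at 3.73 to 6.97 CPM in those labelled Bmal1-/- (log2 fold change -4.32 ± 0.25, adjusted p = 4.11e-06). Tef fell by 0.98 on the log2 scale, Hlf was not called, and Nfil3, which opposes them at shared sites, rose by 1.25. In the growth hormone axis Cux2, known as a female-specific liver repressor, was at 60.3 to 84.0 CPM against 0.204 to 0.874 CPM (log2 fold change -7.39 ± 0.33, adjusted p = 8.45e-07), and Bcl6, known as male-biased, was at 10.7 to 22.2 CPM against 67.6 to 129 CPM (log2 fold change 2.51 ± 0.27, adjusted p = 0.00014). Stat5b rose by 0.52. Ghr, Stat5a, Socs2 and Cish were not called, and Socs2 ranged from 2.75 to 88.3 CPM within the libraries labelled Bmal1-/-.

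Replicate 4 labelled Bmal1-/- stood apart from the others. Its 7 acute-phase transcripts summed to 48350.0 CPM, against 6837 to 9415 CPM in the other libraries of its label and 4602 to 6129 CPM in Bmal1+/+ libraries. Among the 35 tested Cyp2 genes it was the lowest of its 4 libraries for 22, or 62.9%, against 30.01% of all tested genes, and the highest for 6, against 28.4%. The median ratio of its CPM to the mean of the other 3 was 0.668 for the Cyp2 genes and 0.986 for all tested genes. The ratio was lowest for Cyp2b13 (0.104), Cyp2a4 (0.118) and Cyp2c55 (0.222). It was above 1 for Cyp2c69 (7.79), Cyp2c40 (6.06), Cyp2c38 (2.23), Cyp2c39 (2.02), Cyp2d40 (1.60), Cyp2c68 (1.497) and Cyp2g1 (1.20), 7 members that fell, and stood at 1.02 for Cyp2c67, Cyp2c70 and Cyp2j9. The part of the acute-phase difference in these values was not tested. Leaving this library out gave 14 members lower and 14 higher in place of 15 and 12.

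**Figure D5:**
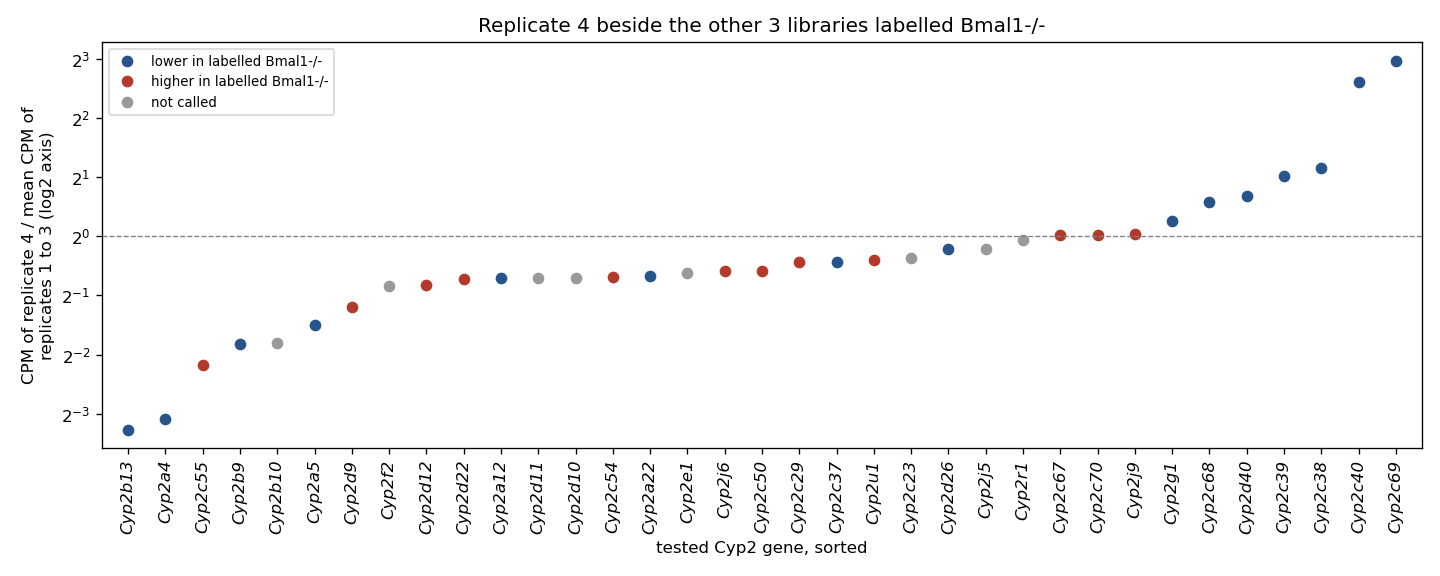
Ratio of the CPM in replicate 4 labelled Bmal1-/- to the mean of the other 3 libraries of that label (log axis) for each tested Cyp2 gene, colored by call. The ratios run from 0.104 for Cyp2b13 to 7.79 for Cyp2c69, with a median of 0.668.

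The promoters of the family were searched on both strands for 4 sets of letters over the 250 bases before the start, in 42 RefSeq promoters of 40 members. The C/EBP letters TTGCNNAA were found in 12, or 28.6%, against 9.57% of 32817 mouse promoters of this length. These belonged to Cyp2a4, Cyp2a5, Cyp2b9, Cyp2b10, Cyp2b13, Cyp2b19, Cyp2b23, Cyp2c37, Cyp2c67, Cyp2c69, Cyp2j8 and Cyp2j9, of which 6 fell, 2 rose, 1 was not called and 3 were not tested. Because neighbors such as Cyp2b9 and Cyp2b13 are near copies, these are not 12 independent promoters. The E-box letters CACGTG, to which the BMAL1 and CLOCK pair is known to bind, were found only in Cyp2j6, or 2.38%, against 6.02% of all promoters. The D-box letters TTATGTAA of PAR bZIP factors were found in none, against 0.817%, and the STAT letters TTCNNNGAA only in Cyp2j11 and Cyp2j12, neither of which had a count, against 7.01%. No overlap between these letter sets was counted, and a window without a match says only that these letters are not in it.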

How the data were processed

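RNA of 8 libraries was compared, 4 Bmal1+/+ and 4 labelled Bmal1-/-, mapped by genotype label and replicate number; replicate 4 of the latter carries another number in its title and the number 4 in its description. Reads were aligned by the authors to GRCm38 (HISAT2), fragments on each gene were counted (StringTie), and these whole-number counts were deposited without normalization; the labels name CASAVA 1.8 and TopHat2 2.0.6 instead. Strand use and the treatment of reads that match several genes are not given in the sources used here, which matters for near-identical Cyp2 genes. The authors also deposited FPKM, which equaled the count over the library total and 1 fixed length per gene within 1% for 100% of 11442 genes with at least 20 counts in every library. FPKM was used only to compare levels between genes.

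Symbols and coordinates came from GENCODE annotation of GRCm38, which matched 99.4% of 55487 identifiers, and promoter sequences from RefSeq (GRCm38.p6). Exons of 11 members overlap another annotated gene. CPM are counts over TMM-scaled library totals. Log2 fold changes and p-values came from edgeR 4.0.16 in R 4.3.3 (filterByExpr, TMM, quasi-likelihood test, 2-sided), adjusted by Benjamini-Hochberg over 14353 genes, and each SE was taken as log2 fold change over root F. Depth ranged from 14054825 to 18449143 counts, and the floor of 3 counts covers counting error only. Members, gene lists and tests were chosen with earlier results of these data known. Members with a mean of at least 10 CPM in either group, or called with an absolute log2 fold change above 1, no overlap and a mean of at least 1 CPM, were described by every library; this took in all 35 tested. Shared transcript sequence was counted as 100-base windows of the transcripts as written, so antisense sharing was not counted. Alternatives were DESeq2 1.42.0, limma-voom (limma 3.58.1), the likelihood ratio test, 2 other scalings, 2 other filters, a larger prior count (2), the fit without each library and the replicate number as a block. The fit was tested on simulated data. Libraries of 1 label differed by more than sampling noise (chi-square per degree of freedom at least 18.0). Figures were drawn with matplotlib 3.10.9 in Python 3.11.15.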

Additional observations from a re-analysis of the deposited data

Results flagged for a closer look

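In 70 groups of 4 libraries, 1 per tested Cyp2 gene and label, a library was far from the other 3 by Dixon's 95% limit in 6 cases, where chance gives about 1 in 20. Of these, 4 were in replicate 4 labelled Bmal1-/-. It was the lowest of its label for Cyp2a12, at 313 CPM, and the highest for Cyp2c38, at 21.4 CPM, Cyp2c40, at 105 CPM, and Cyp2c69, at 47.6 CPM. Cyp2c40 was also far higher in Bmal1+/+ replicate 4, at 745 CPM, than in the other 3 libraries of that label. Cyp2c70 was lowest in replicate 1 labelled Bmal1-/-, at 1483 CPM against 1592 to 1614 CPM in the others, a small gap within a narrow group.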

How the results depend on the processing

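Of 595 refits of single members, 552 kept direction and side of the threshold, 34 lost the call, 8 gained it and 1 changed sign, that of Cyp2e1 without replicate 3 labelled Bmal1-/- (-0.022, and up to 0.23 without any other single library, not called in any). For 24 of the 35 members no alternative run changed the call or the direction. The losses were those of Cyp2a12, Cyp2c37, Cyp2c54, Cyp2d22 and Cyp2d40, and the gains those of Cyp2b10, Cyp2c23, Cyp2d10, Cyp2f2 and Cyp2r1. Over the alternatives the number of members lower was 12 to 17 and the number higher 10 to 14, and leaving out each library in turn gave 12 to 15 and 10 to 14. The number of partner and regulator genes that were higher was 5 by the likelihood ratio test in place of 3, and the cause was not tested. Scaling by library size only gave 2177 genes lower and 2282 higher in place of 2322 and 2135, and 13 and 12 members. Replicate numbers did not pair the libraries, as the deviations of libraries with the same number correlated between -0.06 and 0.06, and the fit with the replicate block gave 13 members lower and 12 higher. Depth limits the values near or under 3 counts, among them Cyp2a4 and Cyp2b13 in the libraries labelled Bmal1-/-.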
